A study of Rattus norvegicus with 5 samples.

Results

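Transcripts of 8 genes of the ocular surface, 4 transmembrane mucins (Muc1, Muc4, Muc16 and Muc20) and 4 members of the Ly6 family (Slurp1, Lypd2, Lypd3 and Psca), were followed in whole rat corneas. The genes were taken by symbol, from a set proposed with earlier results of these data known. Of the 8 symbols, 6 matched a row of the gene table, which holds 20339 genes. Muc4 and Muc16 matched no row by symbol among genes or isoforms and are not analysed here. Corneas came from male Sprague-Dawley rats aged 6 months: 3 were wild-type and 2 were transgenic P1 hMR, a line that expresses the human mineralocorticoid receptor gene NR3C2 in excess. No drug, diet or hormone treatment is named for either group. The promoter that drives the transgene, and whether the transgenic rats descend from 1 founder, are not given in the sources used here. Each library is taken as 1 rat, and p-values measure the spread between these libraries.

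Transmembrane mucins are long, heavily O-glycosylated proteins that stand on the microvilli of the surface cells of the cornea and form the glycocalyx, the layer that holds tears on the epithelium and keeps particles and microbes off it. Ly6 proteins are small cysteine-rich proteins with a compact fold of 3 loops, tethered to the membrane by a lipid anchor or secreted. Slurp1 is secreted, Lypd3 and Psca are anchored, and several relatives bind nicotinic acetylcholine receptors or belong to the fold family of the urokinase receptor. The mineralocorticoid receptor is a nuclear receptor that binds aldosterone and glucocorticoids and, on DNA, a palindromic element shared with the glucocorticoid receptor.

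Upstream sequences were available from RefSeq (build GRCr8) for Muc1, Muc4, Muc20 and Lypd3, and the pair with tested transcripts is shown so that the search for a receptor element can be followed. Each line gives the 250 bases before the transcript start, 5′ to 3′ on the gene's strand. Capitals mark CACCC, read on either strand, the core that Klf4 and its relatives bind.
Muc20, chr11:81492641-81492890, plus strand: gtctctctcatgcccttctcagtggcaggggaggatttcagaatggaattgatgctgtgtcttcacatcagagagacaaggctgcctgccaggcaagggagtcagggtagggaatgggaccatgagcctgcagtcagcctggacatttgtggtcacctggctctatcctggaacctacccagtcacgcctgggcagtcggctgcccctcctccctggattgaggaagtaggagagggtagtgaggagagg
Lypd3, chr1:89354104-89354353, plus strand: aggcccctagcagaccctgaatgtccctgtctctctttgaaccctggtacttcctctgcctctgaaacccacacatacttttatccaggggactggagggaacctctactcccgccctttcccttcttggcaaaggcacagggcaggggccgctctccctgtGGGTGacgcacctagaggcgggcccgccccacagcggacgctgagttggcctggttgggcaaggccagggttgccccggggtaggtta
The CACCC letters occurred once before Lypd3, as GGGTG beginning at position -88 from the start, and did not occur before Muc20. They were present in 49.2% of 33469 promoter windows of this length. Neither window held the palindromic receptor element, AGAACA and TGTTCT with 3 bases of any kind between them, which 0.012% of windows held. Neither held TGTTCT alone on either strand, which 17.5% of windows held, every window with the palindrome included. A match or its absence describes these letters in these windows and nothing about binding.

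Library totals lay between 20874010 and 30449675 counts. Human NR3C2 had 0, 0 and 0 counts in wild-type and 1094 and 1146 in transgenic corneas. The corneal keratins and enzymes that define the epithelium were abundant in every library: Krt12 had 32247 to 45506 CPM (reads scaled to library size, not to transcript length) and Krt5 30011 to 37218 CPM, and 0 of the 18 matched genes of the corneal epithelium list were at 0. CPM values of different genes are not compared as levels here, because transcript lengths were not available. In whole tissue, fewer cells of a type and less RNA per cell cannot be told apart.

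None of the 5 testable genes passed the test between genotypes. With edgeR's quasi-likelihood test, 0 of 5 had an adjusted p under 0.05, beside 0.00752% of all 13304 genes tested, and 0 of 5 had an unadjusted p under 0.05, beside 6.32% of all genes. DESeq2 called 0 of 5 (0.391% of all genes) and limma voom 0 of 5 (0.00752%). At an unadjusted p under 0.05 DESeq2 gave 1 of the 5, Lypd2, beside 6.1% of all genes, and voom gave 0. Muc20, Lypd2, Lypd3 and Psca had lower and Slurp1 higher fitted values in transgenic corneas. Their median log2 fold change was -0.23, against -0.0078 over all genes tested, of which 48.2% were higher. These directions were the same with RLE size factors and with libraries scaled to the corneal epithelium list.

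**Figure D1:**
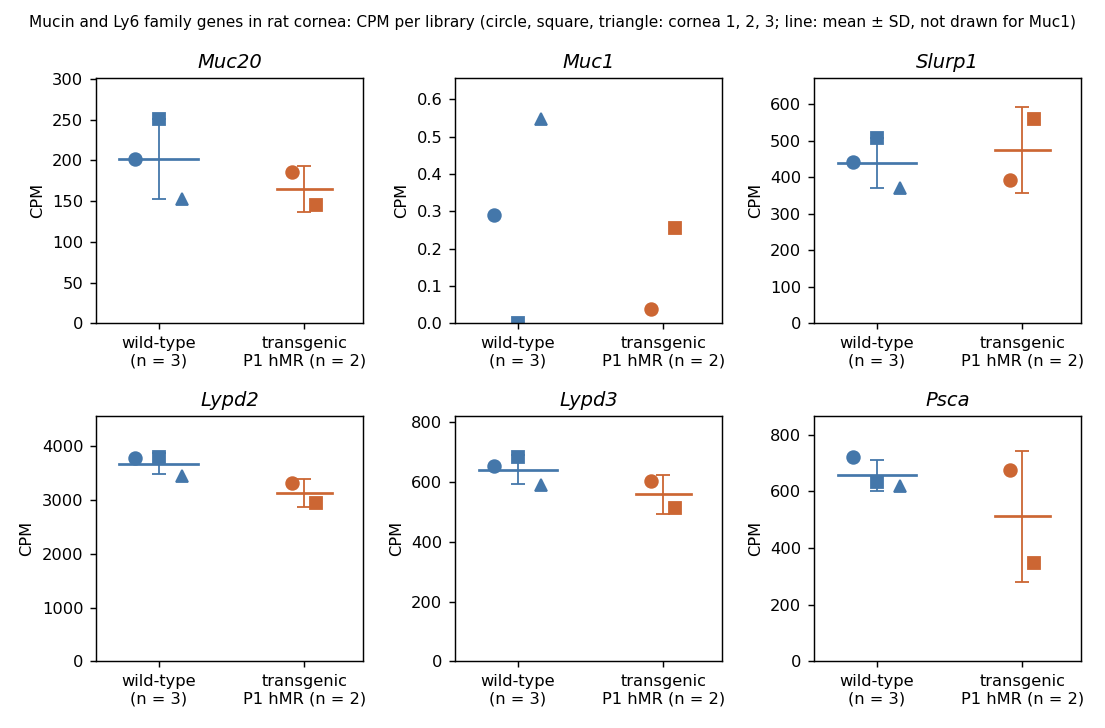
CPM of 6 genes in each library, wild-type in blue (n = 3) and transgenic P1 hMR in orange (n = 2); lines and bars give mean ± SD, not drawn for Muc1, and each vertical axis starts at 0. Only for Lypd2 do both transgenic points lie below all wild-type points, and for Psca the pair of transgenic points lies far apart, at 675 and 348 CPM.

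Muc20, a membrane mucin known to associate with the Met receptor, was the mucin of the set with enough reads to test. Wild-type corneas 1 to 3 had 201, 250.4 and 152 CPM, and transgenic corneas 1 and 2 had 185 and 145 CPM. The wild-type values alone spanned almost the whole range of all 5 libraries, and the groups overlapped. The means were 201 ± 49.1 CPM (SD, n = 3) and 165 ± 28.1 CPM (SD, n = 2), a log2 fold change of -0.28 ± 0.22 (SE, edgeR adjusted p = 0.874). Its 95% interval ran from -0.83 to 0.26, so a fall to 0.564-fold and a rise to 1.2-fold both lie inside it. The isoform row that carries the symbol held 80.5% to 88.1% of the gene's counts per library. That isoform had a log2 fold change of -0.22 ± 0.24, with an adjusted p of 1.00.

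Muc1, the mucin used as a general marker of apical epithelium, was barely read. Its counts were 8, 0 and 12 in wild-type and 1 and 8 in transgenic corneas, or at most 0.546 CPM, and it did not pass the filter on low counts. The count of 0 in wild-type cornea 2 allows up to 0.147 CPM (3 counts). Such counts give no comparison between genotypes.

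Lypd2, a Ly6 protein with little assigned function, had 3771, 3791 and 3448 CPM in wild-type rats 1 to 3, and 3310.5 and 2936 CPM in P1 hMR corneas 1 and 2. Both transgenic values lay below all wild-type ones, as they did for 10.7% of all genes tested (above them for 12%). The means were 3670.3 ± 193 CPM (SD, n = 3) and 3123 ± 265 CPM (SD, n = 2). The log2 fold change of -0.23 ± 0.11 did not pass (edgeR adjusted p = 0.819, 95% interval -0.49 to 0.02), and it ran from -0.32 to -0.15 over 12 alternative settings. DESeq2 gave Lypd2 an unadjusted p of 0.0220 and an adjusted p of 0.622.

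Lypd3, also called C4.4a, is an anchored protein of the upper layers of stratified epithelia. Its values were 654, 683 and 589 CPM in wild-type rats and 605 and 513 CPM in P1 hMR corneas, and the first transgenic value lay within the wild-type range. The means were 642 ± 48.4 CPM (SD, n = 3) and 559 ± 64.6 CPM (SD, n = 2), with a log2 fold change of -0.20 ± 0.12 (edgeR adjusted p = 0.835, 95% interval -0.46 to 0.06).

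Lypd3 lies on chromosome 1 and Lypd2 on chromosome 7, yet the 2 genes kept nearly the same proportion in every cornea. The ratio of Lypd2 to Lypd3 counts was 5.76, 5.55 and 5.86 in wild-type and 5.47 and 5.72 in transgenic corneas. The root mean square distance between their log2 CPM deviations over 5 libraries was 0.0359, the smallest among pairs of the 5 genes. Of 8756 genes with a mean of at least 10 CPM, 30 (0.343%) were nearer to Lypd2. Both genes varied by less than 1.5-fold between libraries, so they fall outside the rule used for nearest patterns of the other genes, and genes that vary little lie close to each other in this measure. This ratio was singled out after its values were seen and is given without a test, and the libraries' depth and composition are shared by both genes.

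Slurp1, a secreted protein of corneal and skin epithelium whose loss in people causes a thickening disease of the palms and soles, had 442, 507 and 369.8 CPM in wild-type rats. Transgenic corneas 1 and 2 had 392 and 558 CPM, one near the bottom of the wild-type range and the other above all of it. The value of transgenic cornea 2 was 1.10 times the highest of the other 4 libraries. Of 8757 genes with a mean of at least 10 CPM, 18.7% were highest in this library and 5.82% lay at least that far above. The means were 439 ± 68.5 CPM (SD, n = 3) and 475 ± 118 CPM (SD, n = 2), with a log2 fold change of 0.11 ± 0.18 (edgeR adjusted p = 0.939, 95% interval -0.32 to 0.55). Without transgenic cornea 2 the fold change turned to -0.16 ± 0.17, so its direction rests on that library.

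Psca, an anchored Ly6 protein first described in prostate and found in several lining epithelia, measured 721, 632 and 619 CPM in the wild-type rats, in order. Transgenic cornea 1 had 675 CPM, inside that range, while transgenic cornea 2 had 348 CPM, the lowest value. The means were 657 ± 55.4 CPM (SD, n = 3) and 512 ± 231 CPM (SD, n = 2), and the log2 fold change of -0.36 ± 0.29 did not pass (edgeR adjusted p = 0.874, 95% interval -1.08 to 0.36). Without transgenic cornea 2 the fold change was 0.04. Without transgenic cornea 1, and so with 1 transgenic library assumed to vary like the wild-type ones, it was -0.92 ± 0.14 and Psca was called (adjusted p = 0.0384), as were 0.266% of all genes. On counts simulated for the comparison of all 5 libraries, the share of false calls among calls exceeded the threshold of 0.05, and the fit without transgenic cornea 1 was not simulated. The value of transgenic cornea 2 was 0.563 times the lowest of the other 4 libraries. Of 8757 genes with a mean of at least 10 CPM, 18 (0.206%), Psca included, lay at least that far below in this library. They include Nccrp1, a squamous epithelial protein (86.1 CPM or more in the other 4 libraries and 47.0 CPM in this one), and the lens crystallins Crybb2 and Cryaa, which were highest in wild-type cornea 1 (58.1 and 40.0 CPM). Names in this list were chosen after their values were seen.

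**Figure D2:**
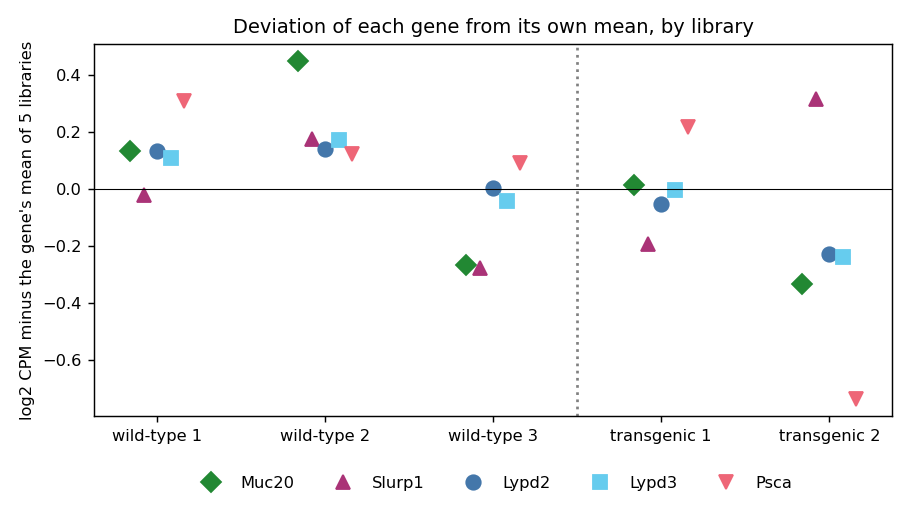
Log2 CPM of each gene minus its own mean of 5 libraries, by library, with a dotted line between the 3 wild-type and 2 transgenic corneas. Lypd2 and Lypd3 lie together in every library, while in transgenic cornea 2 Slurp1 is up by 0.32 and Psca stands at -0.74.

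Slurp1 and Psca are near neighbours on chromosome 7. They lay farthest apart in transgenic cornea 2, at 0.32 for Slurp1 and -0.74 for Psca from their own log2 means. That value of Psca is part of its mean and lowers it, and Psca lay above its mean in every other library. The signs in those libraries are therefore not read as opposition. This pair was described after its values were seen. The ratio of Slurp1 to Psca counts was 0.613, 0.801 and 0.598 in wild-type corneas and 0.580 in transgenic cornea 1, and 1.60 in transgenic cornea 2. Slurp2, a secreted relative of Slurp1, was also lowest in transgenic cornea 2, as were 29% of 8757 genes. It had 91.6, 89.6 and 70.2 CPM in wild-type rats and 76.5 and 49.3 CPM in P1 hMR ones, and the ratio of Psca to Slurp2 stayed between 7.06 and 8.83. Slurp1 made up 7.36% to 9.03% of the summed counts of the 4 Ly6 genes in wild-type corneas and 7.86% and 12.8% in transgenic corneas 1 and 2.

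Summed levels of marker lists are given beside these values, since several were highest or lowest in transgenic cornea 2. Of 8757 genes with a mean of at least 10 CPM, 29% were lowest and 18.7% highest in this library. The summed CPM of all genes tested was also lowest there (969060 CPM, wild-type 997862 to 1021270 CPM). The limbal epithelium list was lowest in transgenic cornea 2, at 2432 CPM (2441 to 2676 CPM in wild-type rats), just below wild-type cornea 2. Its largest part, Itgb4, had 947 CPM there (1085 to 1207 CPM in wild-type rats). Of its 8 tested genes 5 had higher and 3 lower fitted values in transgenic corneas. The cornified skin list was also lowest in this library (105 CPM, wild-type 114 to 201 CPM). Most of it was Sbsn, at 76.7 CPM there (83.9 to 164 CPM in wild-type rats). Among its 5 tested genes, 3 had higher and 2 lower fitted values in transgenic corneas. Lowest there too was the lacrimal and meibomian gland list (4869 CPM, wild-type 5334 to 5975 CPM). Nearly all of it was Aqp5, at 4713 CPM there (5183 to 5831 CPM in wild-type rats). Aqp5 was the 1 tested gene of this list with a lower fitted value, and 5 had higher ones. The summed level of the conjunctiva and goblet cell list, 13 matched genes, was 2971 to 4519 CPM in wild-type rats and 3283 and 5856 CPM in P1 hMR corneas 1 and 2. Most of it was Krt13, at 1608 to 2821 CPM in wild-type rats and 1986 and 3949 CPM in P1 hMR corneas. Krt4, Krt8 and Krt18 of this list were also highest in transgenic cornea 2, at 1562, 201 and 6.69 CPM. Krt7 went the other way, with 196 to 365 CPM in wild-type rats and 228 and 127 CPM in P1 hMR corneas. The goblet cell genes Tff1 and Tff3 and the mucosal gene Bpifa1 were at 0 in all libraries, Muc5b had 5 counts in transgenic cornea 2 and 0 elsewhere, and Muc5ac matched no row. Other genes of this list, Spdef (0.440 to 3.69 CPM) and Creb3l1 (5.24 to 10.7 CPM), were read in every library. Summed levels of the corneal epithelium list were 123552 to 137734 CPM in wild-type rats and 142850 and 114985 CPM in P1 hMR ones, and those of the superficial epithelium list 11668 to 11940 CPM and 12384 and 10363 CPM. The pigment cell list, with all 9 matched genes detected, summed to 13.6 to 54.4 CPM in wild-type rats and 94.0 and 171 CPM in P1 hMR corneas. The keratocyte list summed to 2564.5 to 2734 CPM in wild-type rats and 3108 and 3359 CPM in P1 hMR corneas. In this list 8 of 9 tested genes had higher fitted values and 1, Lum, a lower one. Lum was lowest in transgenic cornea 2, at 189 CPM (223 to 263 CPM in wild-type rats). The corneal endothelium list (1842 to 1938 CPM in wild-type rats, 2046 and 2023 CPM in P1 hMR corneas) and the leukocyte list (90.4 to 101 CPM, 81.5 and 94.5 CPM) had neither extreme in transgenic cornea 2. The part of these cell types in the values of the mucin and Ly6 genes was not tested.

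The Ly6 genes on chromosome 7 stand in one row with genes of steroid synthesis. In RefSeq order the matched genes run Psca, Them6, Slurp1, Lypd2, Slurp2, Lynx1, Ly6d, Ly6k and Gml, followed by Cyp11b genes and Ly6e. Lynx1, a membrane-anchored modulator of nicotinic receptors, had 192 to 261 CPM in wild-type rats and 195 and 180.1 CPM in P1 hMR corneas. Ly6d, a keratinocyte and lymphoid antigen, stayed between 0.956 and 2.49 CPM in all libraries, and Ly6k and Gml were at 0. Cyp11b2, the gene of aldosterone synthase, had 1 count in wild-type cornea 1 and 0 in the other libraries. No tested gene of this row passed the edgeR test, and Lypd2 had the smallest adjusted p among them.

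**Figure D3:**
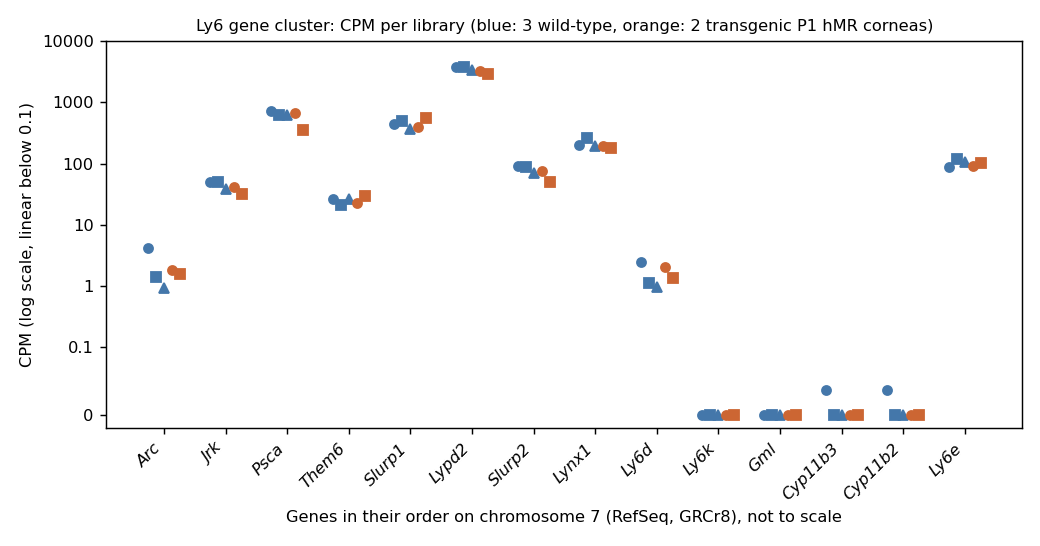
CPM per library on a log axis (linear below 0.1) for genes in their RefSeq order on chromosome 7, wild-type in blue and transgenic in orange. Ly6k and Gml lie at 0, and the orange square of transgenic cornea 2 is low for Psca and Slurp2 and high for Slurp1.

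Other Ly6 and urokinase-receptor family genes were counted from a list of 46 symbols, of which 29 matched and 12 could be tested. Of these 5 had higher and 7 lower fitted values, 0 were called, 3 lay above and 0 below the wild-type range (over all genes tested, 12% lay above and 10.7% below, and 0.00752% were called), and the median log2 fold change was -0.09. Cd59, the inhibitor of the complement membrane attack complex, had 768 ± 65.1 and 726 ± 34.1 CPM in wild-type (SD, n = 3) and transgenic corneas (SD, n = 2). Pinlyp, a phospholipase inhibitor, had 250.5 ± 24.4 and 231 ± 10.3 CPM. Lypd8, an anchored protein known from the colon that binds bacterial flagella, had the smallest p of the list: counts were 3, 5 and 3 in wild-type and 23 and 46 in transgenic corneas. The lower P1 hMR value exceeded the highest wild-type one (0.163 ± 0.0720 and 1.18 ± 0.408 CPM), but the log2 fold change of 2.86 ± 0.58 did not pass (edgeR adjusted p = 0.404). Ly6g6e had 73.6, 38.9 and 60.1 CPM in wild-type rats and 34.0 and 40.2 CPM in P1 hMR corneas (-0.63 ± 0.28, adjusted p = 0.820). Ly6g6c, matched only by an isoform row, had 115 ± 18.3 and 108 ± 36.5 CPM in the isoform fit.

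Among other mucins and sialomucins, 12 of 28 symbols matched and 7 could be tested. Of the 7, 5 had higher and 2 lower fitted values, 0 were called, 1 lay above and 0 below the wild-type range, and the median log2 fold change was 0.28. Over all genes 48.2% were higher, 12% lay above, 10.7% lay below and 0.00752% were called, so 1 of 7 is near the share of all genes. Cd164, a sialomucin of endosomes and the cell surface, had 1028 ± 77.1 and 975 ± 43.3 CPM. Parm1, a mucin-like membrane protein, had 43.5, 45.9 and 56.9 CPM in wild-type rats and 65.6 and 59.3 CPM in P1 hMR corneas, without overlap (0.36 ± 0.13, edgeR adjusted p = 0.695). Emcn, a sialomucin of vessel endothelium, had a log2 fold change of 0.51 ± 0.28, and Podxl, a sialomucin of podocytes and vessels, 0.28 ± 0.30. Muc15, a membrane mucin, had 4.41 to 6.51 CPM in wild-type rats and 6.17 and 4.74 CPM in P1 hMR corneas. Muc6 was at 0 in all libraries. Muc15 and Muc6 were named after their values were seen.

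**Figure D4:**
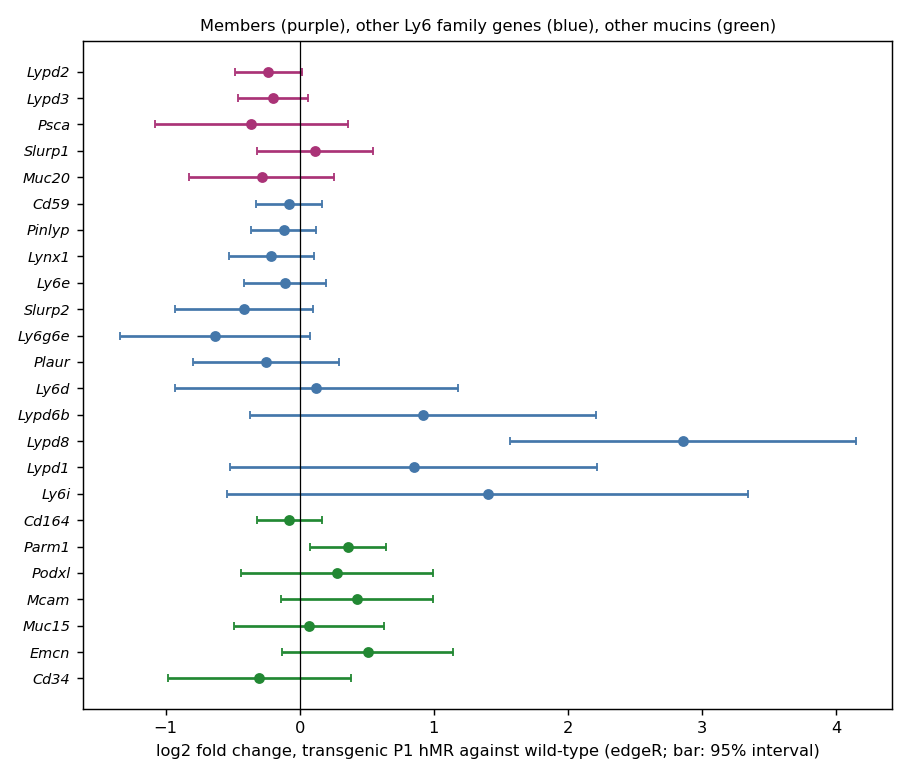
Log2 fold change of transgenic P1 hMR against wild-type corneas with 95% intervals from the edgeR fit, for the 5 tested genes of the set (purple), 12 other Ly6 family genes (blue) and 7 other mucins (green), each ordered by mean CPM. Intervals of all 5 purple genes include 0, and those of Lypd8 and Parm1 do not.

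Enzymes that build O-glycans on mucins gave 24 testable genes of 29 symbols, with 10 higher and 14 lower, 0 called, 5 above and 3 below the wild-type range and a median of -0.05. The shares over all genes were 12% above, 10.7% below and 0.00752% called. With libraries scaled to the corneal epithelium list the numbers were 12 and 12. Galnt2 and Galnt12 start O-glycan chains. Galnt2 had 147 ± 5.26 and 145 ± 2.87 CPM, and Galnt12 had 132 ± 10.2 and 109.8 ± 5.86 CPM (-0.26 ± 0.10, edgeR adjusted p = 0.731). Galnt10 had 28.3 ± 3.58 and 39.3 ± 1.49 CPM (0.48 ± 0.12), and Gcnt3, which branches the chains, 22.999 ± 3.11 and 16.0 ± 0.656 CPM (-0.53 ± 0.14). Both had the smallest p of the list and neither passed (adjusted p = 0.492 for each). St3gal4, a sialyltransferase, split the wild-type corneas, with 169.7 and 166 CPM in corneas 1 and 2 and 83.2 CPM in cornea 3, beside 75.4 and 91.4 CPM in P1 hMR ones.

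Partners of the glycocalyx and enzymes that release mucins gave 23 testable genes of 24, with 11 higher and 12 lower, 0 called, 1 above and 1 below the wild-type range (12% and 10.7% of all genes, with 0.00752% called) and a median of -0.04. With epithelial scaling the numbers were 13 and 10. Lgals3, the galectin that crosslinks surface mucins, had 784 ± 51.8 and 790.1 ± 17.6 CPM. Sdc1, a heparan sulfate proteoglycan, had 3663 ± 146 and 3384 ± 109.95 CPM (-0.11 ± 0.11), and Ctnnb1, which binds the Muc1 tail, 662 ± 14.9 and 677 ± 21.3 CPM. Mmp9, a gelatinase, had 1.95, 0.881 and 0.182 CPM in wild-type rats and 0.231 and 0.191 CPM in P1 hMR corneas (-2.26 ± 0.92, edgeR adjusted p = 0.774), with the wild-type spread covering both transgenic values. Mmp15 had 13.9 ± 2.85 and 17.4 ± 0.262 CPM.

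Receptors and proteases linked to Ly6 proteins gave 12 testable genes of 22, with 6 higher and 6 lower (7 and 5 with epithelial scaling), 0 called, 2 above and 1 below the wild-type range and a median of 0.04. These counts are near the 12% above and 10.7% below over all genes, of which 0.00752% were called. Chrnb3, a nicotinic receptor subunit, had 97.8, 93.0 and 147 CPM in wild-type rats and 94.7 and 152 CPM in P1 hMR corneas. Plat, the tissue plasminogen activator, had 110.03 ± 2.00 and 84.3 ± 9.85 CPM (-0.39 ± 0.10), and Ache, the enzyme that breaks down acetylcholine, 12.4 ± 2.91 and 19.4 ± 1.61 CPM (0.65 ± 0.19). The groups did not overlap for either gene, but neither passed (edgeR adjusted p = 0.492 and 0.543). Lamc1, a laminin chain, had 73.7 ± 3.49 and 85.5 ± 6.19 CPM. Chrna9, Chrna10, Chat and Agr3 were at 0 in all libraries.

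Genes with the pattern nearest to a member were taken over 5 libraries and 8756 genes, by root mean square distance of log2 CPM deviations, for the 3 members whose highest library exceeded the lowest by over 1.5-fold. Nearest to Muc20 were Cwc25 (0.0434), Gpatch11 (0.0522) and Ankk1 (0.0575). Nearest to Slurp1 were Pdzk1ip1 (0.0515), RGD1562136 (0.0534) and Skap2 (0.0664). Nearest to Psca were Gpd1 (0.0673), Frem3 (0.0712) and Ptprj (0.0855), and Frem3, a protein of the Fraser basement membrane complex, had 64.7 to 69.6 CPM in wild-type rats and 73.6 and 37.7 CPM in P1 hMR corneas. These distances are a description, and all genes share the libraries' depth and composition.

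Each of the 6 matched genes had 1 isoform row with its symbol, which held all counts of Slurp1, Lypd2 and Lypd3 and at least 99.9% of those of Psca in each library. Of 5 isoforms tested 0 were called, beside 0% of 27110 isoforms, and 0 had an unadjusted p under 0.05, beside 3.98% of all isoforms.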

How the data were processed

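RNA sequencing of 5 whole corneas was read from 2 tables, 1 per gene and 1 per isoform, of expected counts: the authors estimated and deposited them, and no scaling is recorded. Columns were matched to samples by the column names in the labels. The submitters' processing notes name build rn6, the quantifier RSEM 1.2.28, the aligner STAR 2.5.3a and edgeR 3.28.0, DESeq2 1.26.0, fastp and FastQC, with no role or order. The sources used here do not give whether strand was kept. Reads shared between similar genes are split by estimation, as the fractional values of Psca show.

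Expected counts were rounded, filtered by filterByExpr (minimum count 10), normalized by TMM and tested over all genes in R 4.3.3 with edgeR 4.0.16 (robust quasi-likelihood), two-sided, with Benjamini-Hochberg adjustment and a threshold of 0.05. CPM uses TMM-scaled library sizes. SE is the log2 fold change divided by the square root of F, and 95% intervals use the fit's total degrees of freedom. Floors of 3 counts cover counting error only. DESeq2 1.42.0 and limma 3.58.1 were alternatives, with others of scaling, filter, isoform sums, replicate block and single libraries left out. The procedure was tested on simulated data with 3 and 2 libraries, where the share of false calls among calls exceeded the threshold of 0.05. Levels per length were planned but not computed, since no transcript lengths were at hand. Named genes are the members, the 3 of highest CPM and 2 of smallest p in each related list, and nearest patterns. Marker genes of highest CPM or at 0 are printed for the corneal epithelium and conjunctiva lists and in part for others. Other names were chosen after their values were seen. Members and lists were chosen with earlier results of these data known. Gene order and promoters come from RefSeq GRCr8, where 16183 of 20339 symbols matched.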

Additional observations from a re-analysis of the deposited data

How the results depend on the processing

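The number of genes called over the whole table was 1 in the fit described above, 52 with DESeq2, 2 without a filter on low counts, 2 with sums of named isoform rows, and between 2 and 36 with single libraries left out. Limma voom, RLE size factors and scaling to the corneal epithelium list gave 1 each. The number of mucin and Ly6 genes called was 0 in the fit and in all alternatives but the one without transgenic cornea 1, so that with single libraries left out it ran from 0 to 1. Muc20, Lypd2 and Lypd3 kept a negative fold change in 12 of 12 alternatives, with ranges of -0.47 to -0.09, -0.32 to -0.15 and -0.32 to -0.08. Slurp1 kept its sign in 10 of 12, the exceptions being -0.16 without transgenic cornea 2 and -0.017 with the replicate block, and Psca in 11 of 12, the exception being 0.041 without transgenic cornea 2. Without transgenic cornea 1 the values were 0.34 for Slurp1 and -0.92 for Psca, the latter called. The cause of these changes was not tested. The replicate numbers are not known to pair the rats. Deviations from group means in same-numbered libraries correlated across genes at 0.0006 for number 1 and -0.11 for number 2. The deviations of the 2 transgenic libraries mirror each other, so these values are not separate checks and cannot show whether rats were paired. With the replicate block 16 genes were called and 0 of the 5. The TPM-like alternative for levels per length was not run. With 2 transgenic libraries, intervals were wide for Psca and Muc20, and Muc1 was too shallow to compare.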
